A study of Mus musculus with 12 samples.

Results

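The EGF receptor, 3 of its ligands and 4 genes of the feedback on the ERK kinases were followed in the lung of mice that express human cyclin E and develop lung adenocarcinoma. These 8 genes, Egfr, Areg, Ereg, Hbegf, Dusp4, Dusp6, Spry1 and Spry2, are read by 11 probe sets chosen by their number on the array, out of 45101 in the table. Egfr, Hbegf and Spry2 have a pair of probe sets each, so that the 11 are not independent readings, and the gene names follow the list that chose the probe sets. The arrays comprised 4 lung adenocarcinomas and 4 adjacent lungs of normal histology from mice of the FVB strain carrying wild-type human cyclin E under the human surfactant protein C promoter, and 4 lungs of FVB mice without a transgene. All animals were males of 7 to 11 months. The promoter is that of a gene of alveolar type II cells, and each RNA came from whole pieces of tissue dissected by gross pathology, so that neither the transgene nor the tumor cells were isolated.

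The EGF receptor is a tyrosine kinase of the cell surface. Amphiregulin (Areg), epiregulin (Ereg) and heparin-binding EGF-like growth factor (Hbegf) are made as membrane proteins, cut free by proteases and bind it. Bound receptor switches on Ras, Raf, MEK and ERK, and ERK activity induces its own brakes: the dual-specificity phosphatases Dusp4 and Dusp6, which remove phosphate from MAP kinases, and the Sprouty proteins Spry1 and Spry2, which dampen signalling between receptor tyrosine kinases and ERK. The epithelium of the lung uses this pathway in growth and repair, and it is often altered in lung adenocarcinoma.

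Values are log2 signals, in which a step of 1 is a doubling, with 1 array per sample. The table covers 1.5 to 14.51, and no detection call was used, so that a value under the median of the whole table, 4.18, was not shown to lie above background. A probe set was tested if at least 4 arrays lay above this median. That held for 9 of the 11, whereas Ereg and the probe set 1421656_AT of Spry2 fell short. All p-values are from limma over the 23538 probe sets tested, with Benjamini-Hochberg adjustment at 0.05. Over the probe sets tested, tumor 2 had a median correlation of 0.85 with the other tumors and 0.92 with the 8 lungs, whereas tumors 1, 3 and 4 had 0.96 to 0.97 with the tumors and 0.80 to 0.81 with the lungs. Adjacent normal lung 3 correlated with its own group at 0.92, beside 0.98 for its other members. Results that rest on these arrays are given with and without them. Both arrays were singled out from these same data, so that p-values without them are descriptive and not independent tests. Tumor and adjacent lung of the same number probably came from the same mouse, as described with the processing.

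In the mean, tumors had less Egfr signal and more Areg and Dusp4 signal than either kind of normal lung. Tumor 2 lay within the range of the 8 lungs for all of these. The test called 4 of the 9 probe sets between tumors and adjacent normal lungs, 2 as higher and 2 as lower in tumors, beside 28.7% of all probe sets tested (13.2% higher, 15.6% lower). Against non-transgenic lungs the same 4 were called in the same directions, beside 32.5% of all probe sets (15.6% higher, 16.9% lower). The same 4 differed across the 3 groups in the moderated F-test, which called 28.6% of all probe sets. The 4 are both probe sets of Egfr and those of Areg and Dusp4, that is 3 of the 8 genes. Both higher calls against adjacent normal lungs were lost when tumor 1, 3 or 4 or any 1 adjacent normal lung was left out, which left the 2 lower calls. The median log2 fold change over the 11 probe sets was 0.18 against adjacent normal lungs and 0.49 against non-transgenic lungs, beside 0.07 in both cases over all probe sets tested. The 11 include Ereg and 1421656_AT of Spry2, which were not tested. In whole tissue, fewer cells that carry a transcript and less of it per cell cannot be told apart.

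**Figure D1:**
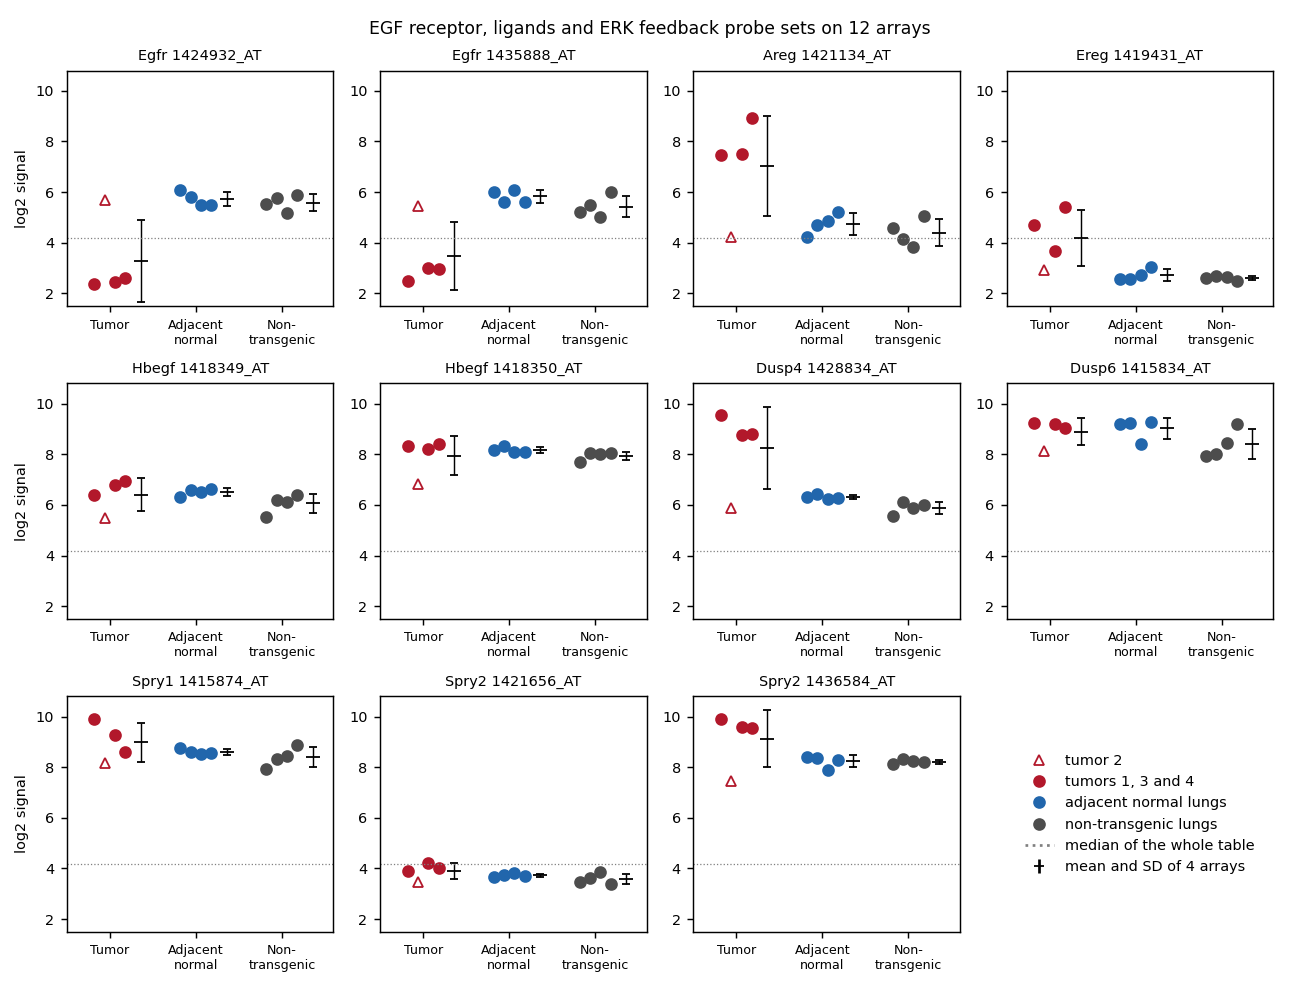
Log2 signal (vertical axes) of the 11 probe sets in tumors, adjacent normal lungs and non-transgenic lungs (horizontal axes), with each array as a point, the mean and SD of 4 arrays as a bar and the table median of 4.18 as a dotted line. Tumor 2, drawn as an open triangle, lies with the lungs for Egfr, Areg, Ereg and Dusp4, where the other 3 tumors lie apart from all 8 lungs.

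The receptor was low in 3 of the 4 tumors. The Egfr probe set 1435888_AT was at a log2 signal of 2.49, 5.44, 3.01 and 2.97 in tumors 1 to 4, at 6.02, 5.61, 6.06 and 5.62 in adjacent normal lungs 1 to 4, and at 5.23, 5.47, 5.0 and 6.0 in non-transgenic lungs 1 to 4. All 4 tumors were below all 4 adjacent normal lungs, but tumor 2 was within the range of the non-transgenic lungs. This was 1 of the 9 probe sets tested in which tumors and adjacent normal lungs did not overlap, beside 23.5% of all probe sets, and none of the 9 separated tumors from non-transgenic lungs, beside 28.5%. The group means were 3.48 ± 1.33, 5.83 ± 0.25 and 5.42 ± 0.43 (SD, n = 4 each) in tumors, adjacent normal lungs and non-transgenic lungs. The log2 fold change was -2.35 against adjacent normal lungs (standard error 0.51, limma adjusted p = 0.0060) and -1.95 against non-transgenic lungs (standard error 0.51, limma adjusted p = 0.013).

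The other Egfr probe set, 1424932_AT, gave the same picture, at 2.37, 5.70, 2.45 and 2.62 in tumors 1 to 4, 6.09, 5.82, 5.49 and 5.49 in adjacent normal lungs, and 5.51, 5.77, 5.17 and 5.89 in non-transgenic lungs. Tumors 1, 3 and 4 lay below all lungs, while tumor 2 lay inside the range of both lung groups. Its log2 fold changes were -2.44 against adjacent normal lungs (standard error 0.60, limma adjusted p = 0.011) and -2.30 against non-transgenic lungs (standard error 0.60, limma adjusted p = 0.013). These are 5.41-fold and 4.92-fold lower signals in tumors, and 5.09-fold and 3.85-fold lower for 1435888_AT. In both probe sets tumors 1, 3 and 4 were under 4.18, so that the size of the decrease is uncertain.

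Both Egfr decreases held when any 1 of the 12 arrays was left out, with adjusted p of at most 0.042. Without tumor 2 they were -3.24 (adjusted p = 1.75e-07) and -3.00 (adjusted p = 1.21e-06) against adjacent normal lungs in limma. With the 8 transgenic arrays alone, paired by number, they were kept at adjusted p = 0.048 and 0.046. The methods' unequal-variance test, named there for other measurements, gave adjusted p = 0.15 to 0.18 for them.

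Over the 12 arrays, the signal of 1424932_AT correlated with that of 1435888_AT with r = 0.98 (Pearson) and 0.73 (Spearman), and over the 8 normal lungs alone Pearson's r was 0.66. Tumors 1, 3 and 4 form a cluster of their own, and the value over 12 arrays describes mainly the gap between it and the other arrays. Among the other 45036 probe sets, 13 followed 1435888_AT more closely than its partner did. The closest, 1418220_AT (r = 0.989) and 1423871_AT (r = 0.987), are not paired with a gene in the tables used here. The log2 signal of 1418220_AT was 2.44 to 2.77 in tumors 1, 3 and 4, 4.65 in tumor 2 and 4.44 to 5.26 in the 8 lungs. That of 1423871_AT was 6.06 to 6.33, 7.20 and 6.98 to 7.49 in the same order. Both were low in tumors 1, 3 and 4 and within the range of the lungs in tumor 2, like Egfr.

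**Figure D2:**
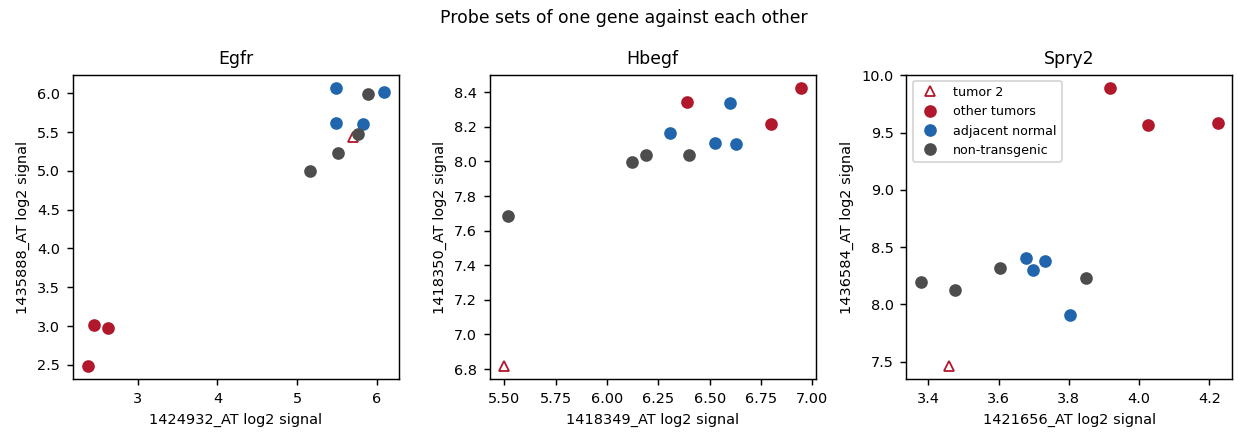
Log2 signals of the paired probe sets of Egfr, Hbegf and Spry2 against each other, with 1 probe set on each axis and each array as a point. For Egfr, tumors 1, 3 and 4 form a low cluster and tumor 2 lies among the lungs. For Hbegf tumor 2 is the lowest array on both axes, and for Spry2 both axes place tumors 1, 3 and 4 highest.

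Because the Egfr signal and the Areg signal moved in opposite directions in the same tumors, the 250 bases before the start of both genes are shown, from RefSeq on GRCm38.p6, chr11:16751953-16752202 on the plus strand for Egfr and chr5:91139349-91139598 on the plus strand for Areg. Capitals mark every match, on either strand, to the letters of 5 promoter motifs. These are the cyclic AMP response element TGACGTCA, the AP-1 site TGANTCA, the ETS motif CCGGAA, the GC box GGGCGG and the TATA box TATAAA. The ETS motif was searched in this longer form only, and its core GGAA alone was not marked. None of the matches overlap.
Egfr: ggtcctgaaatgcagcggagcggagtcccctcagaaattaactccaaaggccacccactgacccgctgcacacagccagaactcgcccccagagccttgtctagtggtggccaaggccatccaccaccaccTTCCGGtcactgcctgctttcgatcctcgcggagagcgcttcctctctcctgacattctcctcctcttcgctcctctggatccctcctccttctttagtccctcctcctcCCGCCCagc
Areg: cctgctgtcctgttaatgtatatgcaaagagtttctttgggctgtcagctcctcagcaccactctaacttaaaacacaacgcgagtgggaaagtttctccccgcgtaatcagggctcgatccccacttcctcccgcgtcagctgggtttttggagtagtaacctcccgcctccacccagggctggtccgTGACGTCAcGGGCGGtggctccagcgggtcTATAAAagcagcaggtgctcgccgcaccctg
The Areg window holds a full cyclic AMP response element from 61 to 54 bases before the start, a GC box from 52 to 47 bases before it and a TATA box from 31 to 26 bases before the start. Of the 32851 windows of this length in the RefSeq table, 1.55% hold the response element, 32.7% a GC box and 12.4% a TATA box. The Egfr window holds the ETS letters CCGGAA, found in 12.0% of all windows, from 119 to 114 bases before the start. It also holds a GC box from 9 to 4 bases before the start, and both are on the minus strand. Neither window holds the AP-1 letters, found in 6.75% of all windows. A match of letters is a description of the sequence and not a site shown to be in use.

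Among the ligands, Areg had the largest increase. Areg (1421134_AT) was at 7.46, 4.23, 7.5 and 8.92 in tumors 1 to 4, against 4.21, 4.69, 4.86 and 5.22 in adjacent normal lungs and 4.59, 4.16, 3.81 and 5.04 in non-transgenic lungs. Tumors 1, 3 and 4 lay above all 8 lungs by more than 2 log2 units, and tumor 2 lay among the lungs. The means were 7.03 ± 1.98, 4.74 ± 0.42 and 4.40 ± 0.53 (SD, n = 4 each) in tumors, adjacent normal lungs and non-transgenic lungs. Areg rose by 2.28 on the log2 scale against adjacent normal lungs (standard error 0.75, limma adjusted p = 0.039) and 2.63 against non-transgenic lungs (standard error 0.75, limma adjusted p = 0.019), or 4.87-fold and 6.18-fold. Non-transgenic lungs 2 and 3 were below 4.18, so that the size of the second increase is uncertain.

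The call against adjacent normal lungs was a narrow one. It was lost when any 1 of 10 arrays was left out (limma adjusted p = 0.0501 to 0.107) and kept without tumor 2 or non-transgenic lung 4. It was lost with no filter (adjusted p = 0.0568) and with only the 8 arrays compared, unpaired (adjusted p = 0.0922) or paired by number (adjusted p = 0.0804), but kept with the number as a block on all 12 arrays (adjusted p = 0.0278). That block also ties in non-transgenic lungs, which are from other mice, so that it is not a pairing. Against non-transgenic lungs the call was lost without tumor 1, 3 or 4 or non-transgenic lung 3 (adjusted p = 0.052 to 0.054) and with only the 8 arrays compared (adjusted p = 0.0508). Without tumor 2 the log2 fold changes were 3.22 (limma adjusted p = 3.83e-05) and 3.56 (limma adjusted p = 1.6e-05). Neither call was kept in the methods' unequal-variance test, with adjusted p = 0.247 against adjacent normal lungs and 0.177 against non-transgenic lungs.

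Ereg, whose gene is the neighbour of Areg on chromosome 5 with 0 annotated genes between them, had low signals. Ereg (1419431_AT) was at 4.70, 2.91, 3.69 and 5.43 in tumors 1 to 4, against 2.58, 2.56, 2.71 and 3.04 in adjacent normal lungs and 2.62, 2.67, 2.63 and 2.47 in non-transgenic lungs. Tumors 1, 3 and 4 again exceeded all lungs, and tumor 4 was the highest tumor for both ligands. Only 2 arrays, tumors 1 and 4, were above 4.18, so that Ereg was below the filter, and nothing shows that the 8 lungs exceeded background. All 4 tumors were above all 4 non-transgenic lungs, but tumors 2 and 3 were themselves under 4.18. These groups did not overlap in 28.5% of all probe sets tested, of which Ereg was not one. The log2 differences of the means were 1.46 against adjacent normal lungs and 1.58 against non-transgenic lungs. In a fit with no filter these had limma adjusted p = 0.030 and 0.018. With 1 array left out of this fit, the call against adjacent normal lungs was kept in 7 of 12 cases and lost without tumor 1 or 4 or adjacent normal lung 1, 2 or 3 (adjusted p = 0.0579 to 0.0886), and that against non-transgenic lungs was lost without tumor 1 (adjusted p = 0.0571). Without tumor 2 the differences were 1.88 and 2.01.

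Hbegf, the remaining ligand, did not pass the test in either comparison. Its probe set 1418350_AT was at 8.34, 6.82, 8.21 and 8.42 in tumors 1 to 4, against 8.16, 8.34, 8.11 and 8.10 in adjacent normal lungs and 7.69, 8.04, 7.99 and 8.04 in non-transgenic lungs. Here tumor 2 did not sit among the lungs but below all of them. The log2 fold change was -0.23 against adjacent normal lungs (95% interval -0.86 to 0.41, limma adjusted p = 0.59) and 0.01 against non-transgenic lungs (95% interval -0.63 to 0.65, limma adjusted p = 0.98). The other probe set, 1418349_AT, was at 5.5 in tumor 2, with the other tumors between 6.39 and 6.94, adjacent normal lungs between 6.30 and 6.63 and non-transgenic lungs between 5.52 and 6.40. It had log2 fold changes of -0.11 (95% interval -0.73 to 0.52) and 0.35 (95% interval -0.27 to 0.97).

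The sign of the Hbegf difference from adjacent normal lungs turned without tumor 2. Without it, 1418349_AT and 1418350_AT differed from adjacent normal lungs by 0.20 and 0.15 (limma adjusted p = 0.46 and 0.37). Against non-transgenic lungs both were then called higher, by 0.65 and 0.39 (limma adjusted p = 0.021 and 0.027).

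Of the phosphatases, Dusp4, which acts on MAP kinases in the nucleus, rose in tumors. Dusp4 (1428834_AT) was at 9.55, 5.88, 8.76 and 8.81 in tumors 1 to 4, against 6.32, 6.42, 6.24 and 6.27 in adjacent normal lungs and 5.56, 6.10, 5.86 and 6.01 in non-transgenic lungs. Tumor 2 was below every adjacent normal lung and inside the range of non-transgenic lungs, whereas the other tumors exceeded all lungs. The means were 8.25 ± 1.62, 6.31 ± 0.08 and 5.88 ± 0.24 (SD, n = 4 each) in tumors, adjacent normal lungs and non-transgenic lungs. The log2 fold change was 1.94 against adjacent normal lungs (standard error 0.59, limma adjusted p = 0.029) and 2.37 against non-transgenic lungs (standard error 0.59, limma adjusted p = 0.010), or 3.83-fold and 5.15-fold.

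The first of these calls was lost when any 1 of 7 arrays was left out, namely tumor 1, 3 or 4 or any adjacent normal lung (limma adjusted p = 0.0535 to 0.0815), and with only the 8 arrays compared, unpaired (adjusted p = 0.0798) or paired by number (adjusted p = 0.0912). With the number as a block on all 12 arrays it was kept (adjusted p = 0.0409), but that block also ties in non-transgenic lungs from other mice. The call against non-transgenic lungs held in limma whichever array was left out, with adjusted p of at most 0.033. The methods' unequal-variance test kept neither call, with adjusted p = 0.24 against adjacent normal lungs and 0.16 against non-transgenic lungs. Without tumor 2 the log2 fold changes were 2.73 and 3.16 (limma adjusted p = 6.54e-07 and 1.98e-07).

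Dusp6, a cytoplasmic phosphatase with a preference for ERK, had overlapping groups. Dusp6 (1415834_AT) was at 9.25, 8.12, 9.18 and 9.04 in tumors 1 to 4, against 9.19, 9.23, 8.42 and 9.26 in adjacent normal lungs and 7.95, 8.0, 8.46 and 9.20 in non-transgenic lungs. Tumor 2 was the lowest tumor and the other tumors lay within the range of the lungs. The log2 fold change was -0.13 against adjacent normal lungs (95% interval -0.84 to 0.58, limma adjusted p = 0.79), 0.13 without tumor 2, and 0.49 against non-transgenic lungs (95% interval -0.21 to 1.20, limma adjusted p = 0.27). Against non-transgenic lungs it was 0.76 without tumor 2 (limma adjusted p = 0.052), and was called (limma adjusted p = 0.025) when adjacent normal lung 3, the lowest of its group, was left out too. That lung is not part of this comparison, so that leaving it out changed the spread used in the test and not the fold change. Whether Dusp4 and Dusp6 changed to different extents was not tested.

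**Figure D3:**
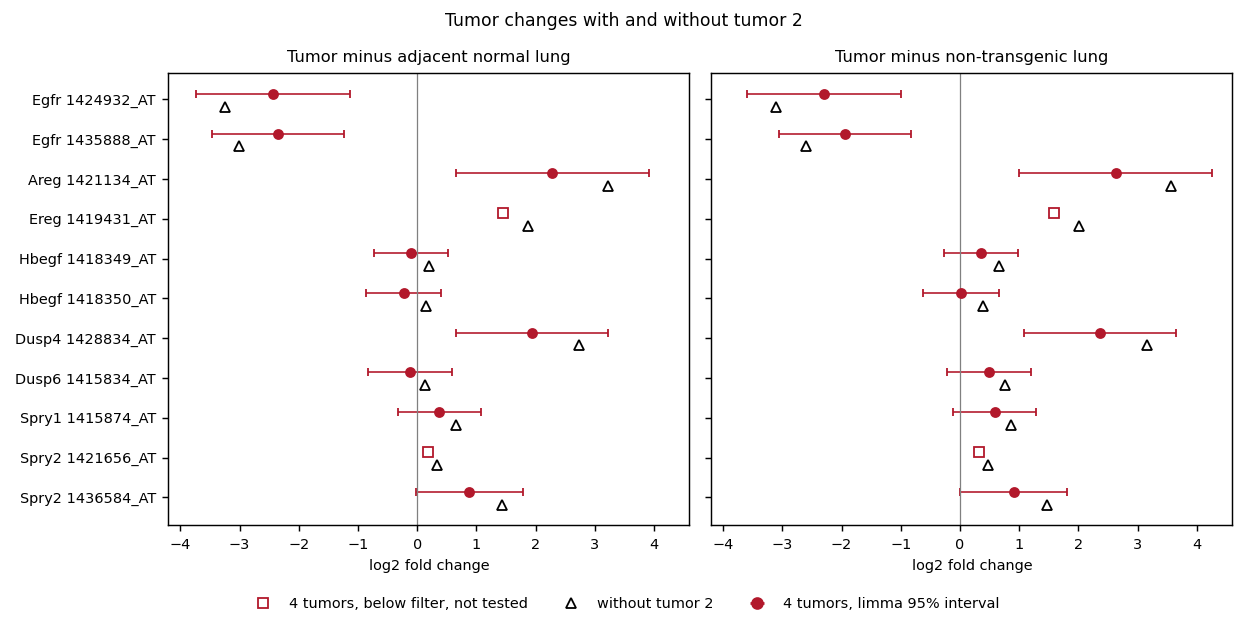
Log2 fold change (horizontal axes) of the 11 probe sets in tumors over adjacent normal lungs (left) and over non-transgenic lungs (right), with 95% intervals from limma as bars for the 9 probe sets tested, open squares for the 2 below the filter and open triangles for the values without tumor 2. The intervals of Egfr lie below 0 and those of Areg and Dusp4 above 0 in both panels, and leaving out tumor 2 moves each of these farther from 0.

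Neither Sprouty gene passed the test over all 4 tumors, although Spry2 was at its highest in tumors 1, 3 and 4. Spry2 (1436584_AT) was at 9.89, 7.47, 9.58 and 9.57 in tumors 1 to 4, against 8.41, 8.38, 7.90 and 8.30 in adjacent normal lungs and 8.12, 8.32, 8.23 and 8.19 in non-transgenic lungs. The 3 high tumors exceeded all lungs by over 1 log2 unit and tumor 2 was below all of them. The log2 fold change was 0.88 against adjacent normal lungs (95% interval -0.03 to 1.78, limma adjusted p = 0.13) and 0.91 against non-transgenic lungs (95% interval 0.0042 to 1.81, limma adjusted p = 0.11). Without tumor 2 it was 1.43 and 1.46 (limma adjusted p = 1.17e-05 and 9.2e-06). The probe set 1421656_AT of the same gene was below the filter. It was at 3.46 in tumor 2, with the other tumors between 3.92 and 4.22, adjacent normal lungs between 3.68 and 3.80 and non-transgenic lungs between 3.38 and 3.85. The other tumors again exceeded every lung, but narrowly, and only tumor 3 was above 4.18. In a fit with no filter, limma adjusted p was 0.51 against adjacent normal lungs and 0.185 against non-transgenic lungs. Pearson's r between both probe sets of Spry2 was 0.77 over the 12 arrays and -0.03 over the 8 normal lungs.

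The 250 bases before the start of Spry2, the member with the smallest adjusted p among those called only without tumor 2, lie at chr14:105896820-105897069 on the minus strand of GRCm38.p6 in RefSeq.
Spry2: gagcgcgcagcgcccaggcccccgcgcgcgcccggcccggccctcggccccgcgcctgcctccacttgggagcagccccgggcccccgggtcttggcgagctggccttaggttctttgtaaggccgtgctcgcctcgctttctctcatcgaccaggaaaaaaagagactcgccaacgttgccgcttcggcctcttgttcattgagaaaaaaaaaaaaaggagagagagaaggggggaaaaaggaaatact
This window is printed with no capitals because the letters of none of the 5 motifs matched it. That also held for Dusp6, and the window of Spry1 matched the GC box only. The shorter ETS core GGAA was not searched for, and it does occur in the Spry2 window. Windows of 5 of the 8 genes were used.

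Spry1 (1415874_AT) was at 9.91, 8.15, 9.27 and 8.59 in tumors 1 to 4, against 8.77, 8.58, 8.52 and 8.55 in adjacent normal lungs and 7.94, 8.32, 8.46 and 8.87 in non-transgenic lungs. Only tumors 1 and 3 exceeded all lungs. The log2 fold change was 0.37 against adjacent normal lungs (95% interval -0.32 to 1.07, limma adjusted p = 0.40) and 0.58 against non-transgenic lungs (95% interval -0.11 to 1.28, limma adjusted p = 0.18). Without tumor 2 these were 0.65 (limma adjusted p = 0.076) and 0.86 (limma adjusted p = 0.024).

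Across the 11 probe sets, tumors 1, 3 and 4 lay together outside the range of the 8 lungs in 7, above it in 5 (Areg, Ereg, Dusp4 and both of Spry2) and below it in 2 (both of Egfr). Over all probe sets tested this held for 40.9%, with 21.7% above and 19.1% below. Tumor 2 was within the range of the 8 lungs in 8 of the 11, beside 54.6% of all probe sets tested, and below it in 3, both of Hbegf and 1436584_AT of Spry2, beside 22.7%. Ereg and 1421656_AT of Spry2 are counted among the 5 above the range and the 8 with tumor 2 within it. Both were below the filter and not among the probe sets tested, so that these counts and shares are not over like sets. The share of tumor cells in the pieces was not measured, and its part in the difference between tumor 2 and the other tumors was not tested. Without tumor 2, 5 of the 9 probe sets were called against adjacent normal lungs, 3 higher and 2 lower, beside 45.0% of all probe sets (23.0% higher, 22.1% lower). Against non-transgenic lungs 8 of the 9 were called, 6 higher and 2 lower and all but Dusp6, beside 46.8% of all probe sets (24.3% higher, 22.5% lower).

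**Figure D4:**
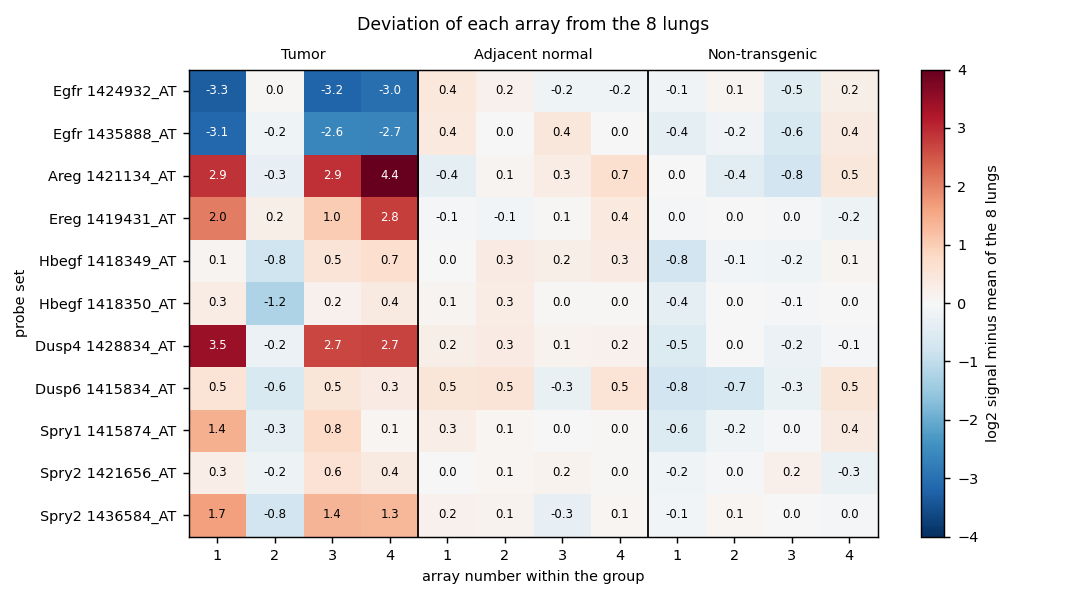
Log2 signal minus the mean of the 8 lungs for each of the 11 probe sets (vertical axis) on each of the 12 arrays (horizontal axis, array numbers within tumors, adjacent normal lungs and non-transgenic lungs), with higher values in red and lower in blue. Tumors 1, 3 and 4 carry the low Egfr and the high Areg, Ereg and Dusp4 values together, while tumor 2 is between -0.34 and 0.25 for these genes.

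Differences between samples of the same number, which restate the values above, followed the same division. Tumor minus adjacent lung of the same number was -3.53, -0.16, -3.05 and -2.65 for Egfr 1435888_AT in numbers 1 to 4. It was 3.25, -0.46, 2.64 and 3.70 for Areg, and 3.23, -0.54, 2.52 and 2.53 for Dusp4. The order of the 3 high tumors differed between genes: tumor 1 was highest for Dusp4, Spry1 and 1436584_AT of Spry2, and tumor 4 for Areg and Ereg.

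Adjacent normal lungs, which carry the cyclin E transgene, did not differ from non-transgenic lungs in any of the 9 probe sets at an adjusted p under 0.05 in limma, as held for 0 of all 23538 probe sets. At an unadjusted p under 0.05 limma gave 0 of the 9, beside 3.55% of all probe sets, and the methods' unequal-variance test gave 1, Dusp4, beside 5.54% of all probe sets, and 0 after adjustment. All 11 mean differences were positive as deposited, beside 51.3% of all probe sets tested, but that of 1436584_AT of Spry2 was 0.03 and turned to -0.018 after median centring. Ereg and 1421656_AT of Spry2, counted in the 11, were not among the probe sets tested. The groups did not overlap in Dusp4 (6.24 to 6.42 in adjacent normal lungs, 5.56 to 6.10 in non-transgenic lungs). Nor did they overlap in Hbegf 1418350_AT (8.10 to 8.34 and 7.69 to 8.04 in the same order). Adjacent normal lungs were higher in both, which is 2 of 9 beside 2.54% of all probe sets tested, and 4.78% with either direction. In the other Hbegf probe set, 1418349_AT, the groups overlapped, with adjacent normal lungs from 6.30 and non-transgenic lungs up to 6.40. The differences were 0.43 for Dusp4 (95% interval -0.85 to 1.71) and 0.24 for Hbegf 1418350_AT (95% interval -0.40 to 0.88). The largest, 0.62, was that of Dusp6 (95% interval -0.09 to 1.33). These intervals use the spread of all 3 groups, and that of the tumors was the widest for Dusp4 and Hbegf. Adjacent normal lungs both carry the transgene and lay beside a tumor, and these cannot be told apart in this comparison.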

How the data were processed

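Biotin-labelled cRNA from total RNA of 12 samples, 4 in each of 3 groups, was read on Affymetrix Mouse Genome arrays. The authors deposited log2 values per probe set, background corrected and normalized between arrays. Whether Robust Multichip Average (the paper's methods) or GCRMA (the submitters' processing notes) made them could not be told from the values. Groups and replicate numbers came from the sample labels.

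The rule for the members uses gene and probe set numbers, but these genes and the gene lists were chosen with earlier results of these data known. The rule for named genes took all 11 probe sets and the closest probe sets to Egfr. Gene names come from the list that defined the members. The tables used here do not pair other probe sets with genes, so that 59 genes of 8 lists of the pathway and 49 markers in 10 lists of cell types were not analysed here, and the labelled tissue was not checked against markers.

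limma 3.58.1 in R 4.3.3 was fitted (lmFit, eBayes) to all 12 arrays with 3 groups and no block, over the 23538 of 45037 probe sets that were not controls and lay above 4.18 in at least 4 arrays. The 95% intervals are from this fit. With 4 arrays in each group, their number limits the precision. The study's design text and the labels imply that tumor and adjacent lung of the same number are from the same mouse, whereas the paper's methods call the samples independent. The main fit has no pairing because the methods analyse the 3 groups together by analysis of variance, and paired fits are given beside it. In a block on all 12 arrays, the number also ties in non-transgenic lungs, which are from other mice. The correlation of the deviations of tumor and adjacent lung of the same number around their group means was -0.03, 0.10, 0.07 and 0.11 for numbers 1 to 4. Only 1 tumor, that of number 4, correlated best with the adjacent lung of its own number. The highest correlation of any 2 arrays was 0.9935. The fit was tested on simulated data.

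The alternatives were other filters, quantile normalization, median centring, a floor at 2.81, leaving out each array, leaving out tumor 2 with adjacent normal lung 3, an intensity trend with robust fit, blocking on the replicate number, a random effect of the mouse, only the 8 arrays compared, the mean of a gene's probe sets, and the tests of the methods. Fits with no filter and 1 array left out, for the 2 members below the filter, were added after seeing the data. All 8 genes were found by symbol in the RefSeq gene list. Promoter windows (GRCm38.p6), also matched by symbol, were used for 5 of them, and none for Ereg, Hbegf and Dusp4.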

Additional observations from a re-analysis of the deposited data

Results flagged for a closer look

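Of 33 sets of 4 arrays (11 probe sets in 3 groups), Dixon's criterion singled out 1 array in each of 5 sets, and about 1 set in 20 would be singled out by chance. Tumor 2 was that array in 3 of them. It was at a log2 signal of 5.70 for Egfr 1424932_AT, where the other tumors were at 2.37 to 2.62, at 6.82 for Hbegf 1418350_AT, where they were at 8.21 to 8.42, and at 7.47 for Spry2 1436584_AT, where they were at 9.57 to 9.89. Adjacent normal lung 3 was at 8.42 for Dusp6 1415834_AT, beside 9.19 to 9.26 in its group. Non-transgenic lung 1 was at 7.69 for Hbegf 1418350_AT, beside 7.99 to 8.04 in its group.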

How the results depend on the processing

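Of the 9 probe sets tested, the 4 called against adjacent normal lungs became 2 (both of Egfr) with only the 8 arrays compared and 2 with the replicate number as a block on these 8 arrays, but stayed 4 with the replicate number as a block on all 12 arrays and with the mouse as a random block. The block changed no other call against adjacent normal lungs. On all 12 arrays it also ties in non-transgenic lungs from other mice by their number, so that there it is not a pairing. No member passed with the filter at the 75th percentile, where the count was 0 in all 4 tests and only 5 members, none of them called before, were tested. The methods' unequal-variance test gave 1, 0 and 1 unadjusted (against adjacent normal, against non-transgenic, and between the lung groups), beside 28.3%, 34.4% and 5.54% of all probe sets tested, and 0 in each after adjustment, beside 2.51%, 6.33% and 0%. The analysis of variance of the methods gave 4 unadjusted, beside 39.7%, and 2 after adjustment, beside 24.4%. Without tumor 2 and adjacent normal lung 3 together, 9 were called against non-transgenic lungs, beside 52.3%, and 7 across the 3 groups, beside 48.9%. With 1 array left out, the counts were 2 to 5 against adjacent normal lungs (19.0% to 45.0% of all), 3 to 8 against non-transgenic lungs (22.8% to 46.8%), 0 between the lung groups (0%) and 1 to 6 across the 3 groups (17.6% to 44.2%), with 1 without tumor 1, 3 or 4. The most were called without tumor 2.

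Signs turned only for differences that were not called. Median centring, which moved the median of all probe sets tested by 0.12 between tumors and adjacent normal lungs, turned Hbegf 1418349_AT to 0.011 in that comparison and Spry2 1436584_AT to -0.018 between the lung groups. Without tumor 2 and adjacent normal lung 3, Hbegf 1418349_AT and 1418350_AT were 0.20 and 0.13 above adjacent normal lungs. With 1 array left out, the log2 fold changes against adjacent normal lungs were -0.28 to 0.20 for Hbegf 1418349_AT, -0.38 to 0.15 for Hbegf 1418350_AT and -0.33 to 0.13 for Dusp6, that of Hbegf 1418350_AT against non-transgenic lungs was -0.15 to 0.39, and between the lung groups they were -0.024 to 0.14 for Spry2 1436584_AT and -0.00072 to 0.24 for Egfr 1424932_AT. The cause of these changes was not tested.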
